A study of Homo sapiens with 10 samples.

Results

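The genes of the PAF1 transcription elongation complex, PAF1, CTR9, LEO1, CDC73 and RTF1, were picked by symbol and made up 5 of the 46427 genes measured. All 5 were expressed in every library, and all 5 passed the filter on low counts in every comparison. Their mRNA was measured by RNA sequencing in 10 libraries of H460 and A549, established lung cancer cell lines. The H460 libraries were 3 of parental cells grown in 2 dimensions (2D), 1 of cisplatin-resistant (CR), 2 of paclitaxel-resistant (PR), 1 of doxorubicin-resistant (DR) and 1 of tumor spheroid (TS) cells, and the A549 libraries were 1 of 2D and 1 of TS cells. No label names a genetic change in any group. CR cells had outlived 4 µM cisplatin, PR cells 5 nM paclitaxel and DR cells 0.5 µM doxorubicin, each given for 3 days and followed by 3 days in fresh medium, so each is a population of survivors. TS cells, which the sample titles call CTC, grew unattached in a defined medium with growth factors, whereas 2D cells grew in serum, so attachment and medium cannot be told apart.

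The PAF1 complex rides with RNA polymerase II along transcribed genes, where it helps release the paused enzyme, speeds elongation and links transcription to ubiquitination of histone H2B and methylation of histone H3. CTR9 is the scaffold, PAF1 and LEO1 form a dimer that binds the polymerase, CDC73 (parafibromin, a tumor suppressor lost in parathyroid cancer) contacts other factors, and RTF1, which is held more loosely in human cells, stimulates the ubiquitin ligase for H2B. WDR61 (also SKIC8) is a further subunit that it shares with the SKI complex of RNA decay, and it was examined as a partner.

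The promoters of PAF1, LEO1, CTR9 and RTF1 are shown for their motif letters. No promoter sequence of CDC73 was available here. Any link of the letters to the mRNA levels below was not tested. Each run is RefSeq sequence of GRCh38.p14 on the gene's own strand, from 250 bases before to 30 bases after the start, and capitals mark the motifs found. The windows are chr19:39391077-39391356 (minus strand) for PAF1, chr15:51971749-51972028 (minus) for LEO1, chr11:10750996-10751275 (plus) for CTR9 and chr15:41416845-41417124 (plus) for RTF1.
PAF1: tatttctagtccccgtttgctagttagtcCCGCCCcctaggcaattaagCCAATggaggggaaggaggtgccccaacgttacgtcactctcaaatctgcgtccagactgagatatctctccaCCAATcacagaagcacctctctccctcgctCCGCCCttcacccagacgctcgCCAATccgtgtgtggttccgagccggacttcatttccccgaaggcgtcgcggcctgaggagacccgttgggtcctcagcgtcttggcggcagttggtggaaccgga
LEO1: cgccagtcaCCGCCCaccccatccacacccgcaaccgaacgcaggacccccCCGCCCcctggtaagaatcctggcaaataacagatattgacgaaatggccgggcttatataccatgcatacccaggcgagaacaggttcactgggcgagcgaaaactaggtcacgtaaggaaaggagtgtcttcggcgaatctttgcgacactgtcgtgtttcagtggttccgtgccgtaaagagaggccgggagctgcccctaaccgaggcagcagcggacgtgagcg
CTR9: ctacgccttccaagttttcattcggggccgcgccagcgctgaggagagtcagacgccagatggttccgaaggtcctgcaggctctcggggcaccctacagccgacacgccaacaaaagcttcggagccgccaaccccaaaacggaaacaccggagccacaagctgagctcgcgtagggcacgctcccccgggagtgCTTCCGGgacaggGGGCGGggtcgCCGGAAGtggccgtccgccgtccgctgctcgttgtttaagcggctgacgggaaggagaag
RTF1: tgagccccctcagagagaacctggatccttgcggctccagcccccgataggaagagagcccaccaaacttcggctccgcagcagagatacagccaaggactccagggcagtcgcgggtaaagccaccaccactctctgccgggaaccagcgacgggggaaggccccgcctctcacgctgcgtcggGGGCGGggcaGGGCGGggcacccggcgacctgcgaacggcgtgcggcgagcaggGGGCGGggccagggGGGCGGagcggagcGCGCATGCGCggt

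Both strands were searched for the GC box (GGGCGG), the ETS motif (CCGGAAG), the NRF1 motif (GCGCA followed directly by its reverse complement), the YY1 motif (ATGGCGG), the CCAAT box (CCAAT) and the cell cycle homology region (TTTGAA). The PAF1 window held 3 CCAAT boxes and 2 GC boxes, the LEO1 window 2 GC boxes, the CTR9 window 2 ETS motifs around 1 GC box, and the RTF1 window 4 GC boxes and 1 NRF1 motif. Among 35116 promoter windows of the same length, 44.1% held a GC box, 33.7% a CCAAT box, 9.94% the ETS motif and 1.21% the NRF1 motif. The YY1 letters (4.44% of windows) and the cell cycle letters (14.5%) were in none of the 4 windows. These matches describe the letters only.

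Libraries held between 59499787 and 89541774 reads counted on genes. The epithelial keratins KRT8 and KRT18 were high in both lines (FPKM of 282.7 to 750.6 and 190.4 to 349.0 in H460, 1446 to 3866 and 1341 to 3229 in A549). The keratin KRT19 was 138.3 to 738.3 in H460 and lower in A549, at 3.57 to 68.3. The epithelial marker EPCAM was at most 0.114 in H460 and 1.04 in A549. The leukocyte and endothelial genes PTPRC, CD3E, PECAM1 and CDH5 were at most 0.157, and CD14 was 2.37 to 17.1. Summed FPKM of 10 proliferation genes was 860.9, 858.1 and 580.9 in the parental libraries, 121.2 to 214.0 in the drug-resistant libraries and 724.6 in H460 TS, and in A549 it was 886.8 in 2D and 467.3 in TS.

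Levels of the 5 genes are given as FPKM, which is scaled for transcript length and library size and so can be set side by side between genes. In parental H460 cells, LEO1 (20.9 ± 3.02, SD, n = 3) and PAF1 (19.7 ± 1.10) were highest and overlapped each other. CDC73 (12.4 ± 2.53), RTF1 (10.2 ± 1.89) and CTR9 (9.77 ± 2.27) followed, with ranges that overlapped. Among the 11640 genes with a mean parental FPKM of at least 1, LEO1 stood at percentile 76.6, PAF1 at 75.2, CDC73 at 64.0, RTF1 at 58.1 and CTR9 at 57.0. In A549 2D cells the order was PAF1 (37.0), LEO1 (22.7), CTR9 (16.5), RTF1 (8.59) and CDC73 (8.15), and in A549 TS cells it was PAF1 (33.3), LEO1 (20.3), CTR9 (12.7), CDC73 (8.81) and RTF1 (7.27). CDC73 and RTF1 thus traded places between the A549 libraries.

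**Figure D1:**
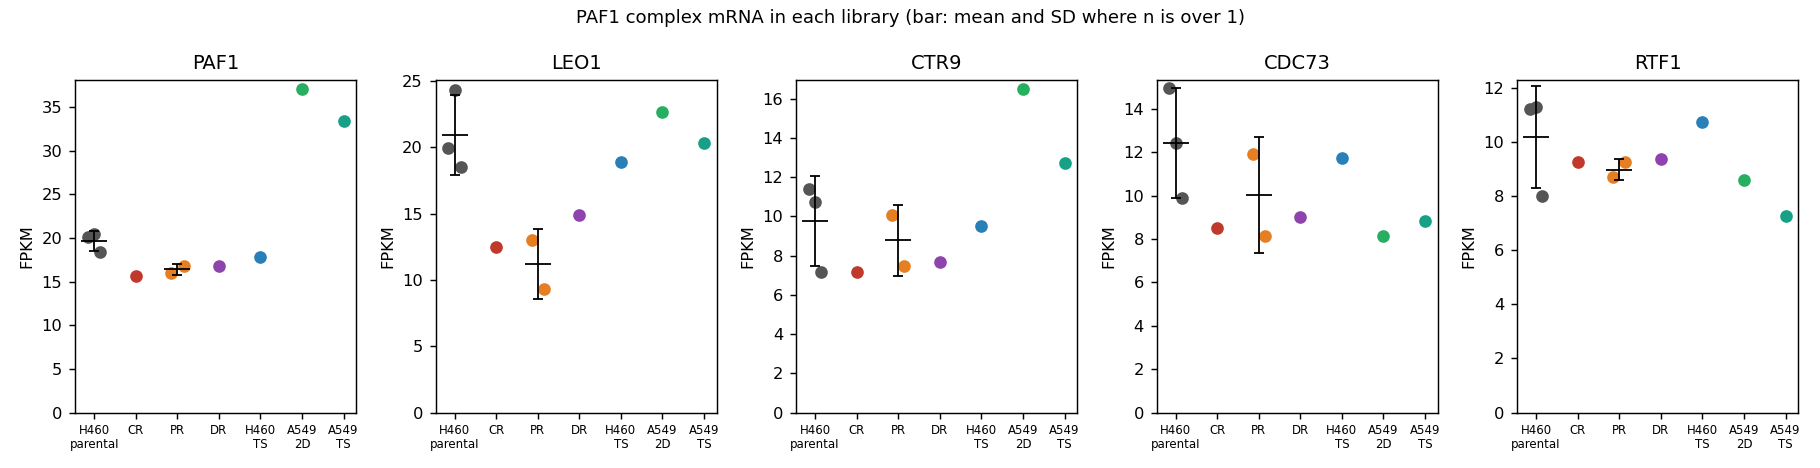
FPKM of PAF1, LEO1, CTR9, CDC73 and RTF1 in each of the 10 libraries, 1 point per library. A bar gives the mean and SD where a group had more than 1 library. LEO1 lay between 9.30 and 14.9 in drug-resistant cells and between 18.5 and 24.3 in parental cells, and PAF1 was 37.0 and 33.3 in A549.

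LEO1 was the only member called lower in drug-resistant H460 cells. All 5 members had fitted log2 fold changes below 0, with a median of -0.38 beside 0.06 for all genes tested. LEO1 was not tested against the other members. Its FPKM was 19.96, 24.3 and 18.5 in the parental libraries, 12.5 in CR, 13.0 and 9.30 in PR and 14.9 in DR. The groups did not overlap, and DR lay nearest to the parental libraries. In the edgeR quasi-likelihood test on read counts, the 4 drug-resistant libraries were at 0.555 of the parental level (log2 fold change -0.85, SE 0.21, 95% interval -1.31 to -0.39, adjusted p = 0.011). LEO1 was 1 of 5 members called, and it was called lower, beside 15.4% of all 18398 genes tested called lower and 33.8% called in either direction. The call held in 14 of 14 alternative settings, with adjusted p (edgeR, DESeq2 or limma) between 0.00158 and 0.0473. No source used here says that replicates were separate cultures, so p-values may measure technical spread. In bulk RNA, fewer cells with the mRNA and less mRNA per cell cannot be told apart.

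PAF1 also had no overlap between the groups, yet its smaller difference did not pass the test. Its FPKM was 20.1, 20.5 and 18.4 in parental cells, 15.7 in CR, 15.97 and 16.8 in PR and 16.8 in DR. The log2 fold change was -0.38 (SE 0.15, adjusted p = 0.0714). Of 12755 genes that reached an FPKM of 1 in 2 or more of these libraries, 17.3% had all 4 drug-resistant values below all 3 parental values.

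For the scaffold CTR9, FPKM was 11.4, 10.7 and 7.17 in parental cells against 7.19 in CR, 10.1 and 7.50 in PR and 7.69 in DR. For CDC73 it was 14.96, 12.4 and 9.89 against 8.49, 11.9 and 8.14, and 9.02. For RTF1 it was 11.2, 11.3 and 8.01 against 9.28, 8.71 and 9.25, and 9.38. In each of these 3 genes parental replicate 3 was the lowest parental value and lay within or below the drug-resistant range. Fitted log2 fold changes were -0.51 for CDC73 (SE 0.19, adjusted p = 0.0668), -0.38 for CTR9 (SE 0.19, adjusted p = 0.151) and -0.26 for RTF1 (SE 0.17, adjusted p = 0.262). Without parental replicate 3, CDC73 (-0.65, adjusted p = 0.0403) and CTR9 (-0.56, adjusted p = 0.0424) passed the edgeR test. CDC73 passed also without PR replicate 1 (-0.61, adjusted p = 0.0450). That parental library also had the lowest parental proliferation sum, and the part of proliferation in these differences was not tested.

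**Figure D2:**
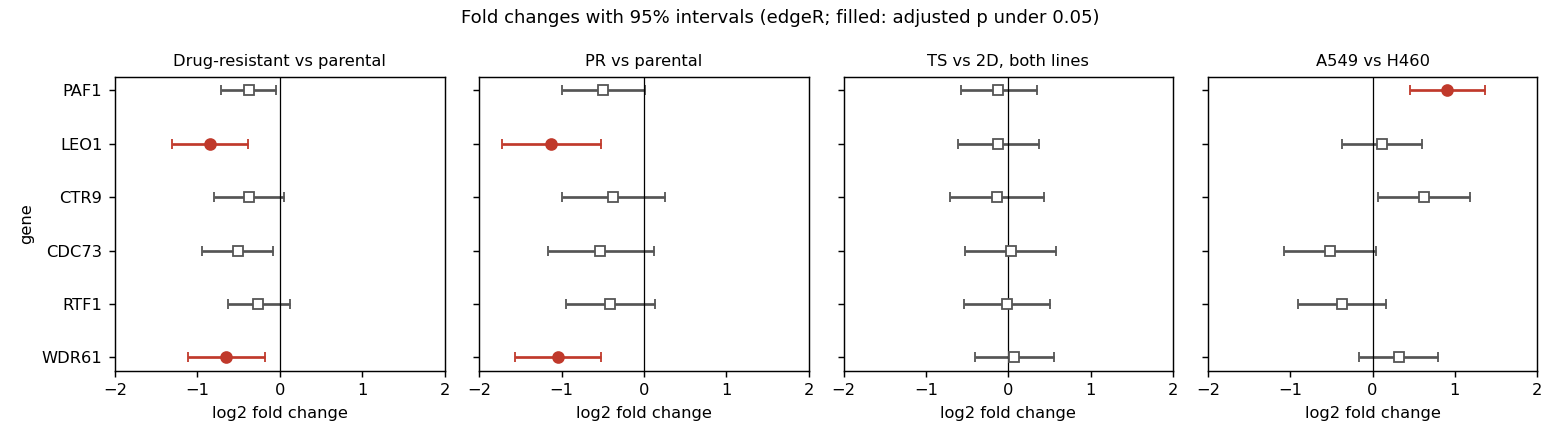
Log2 fold changes with 95% intervals for the 5 genes and WDR61 in the tested comparisons, from edgeR on read counts, with filled points for an adjusted p under 0.05. LEO1 was at -0.85 in drug-resistant against parental cells, and PAF1 was at 0.91 in A549 against H460.

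LEO1 was also set against its dimer partner, a measure that does not depend on how libraries are scaled. The ratio of LEO1 to PAF1 FPKM was 0.993, 1.19 and 1.00 in parental cells, 0.796 in CR, 0.816 and 0.552 in PR, 0.887 in DR and 1.06 in H460 TS. All 4 drug-resistant ratios lay below the parental ones, with DR nearest to them. No test was made of the ratio, which uses the same FPKM values and is no second measurement. How many other genes would separate in this way was not examined. The ratios of the other members to PAF1 overlapped. In parental and drug-resistant cells they were 0.390 to 0.567 and 0.445 to 0.629 for CTR9, and 0.538 to 0.744 and 0.484 to 0.747 for CDC73. For RTF1 they were 0.435 to 0.559 and 0.546 to 0.592. LEO1 made up 25.7% to 30.7% of the summed FPKM of the 5 genes in parental cells and 18.2% to 25.8% in drug-resistant cells, ranges that touch.

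**Figure D3:**
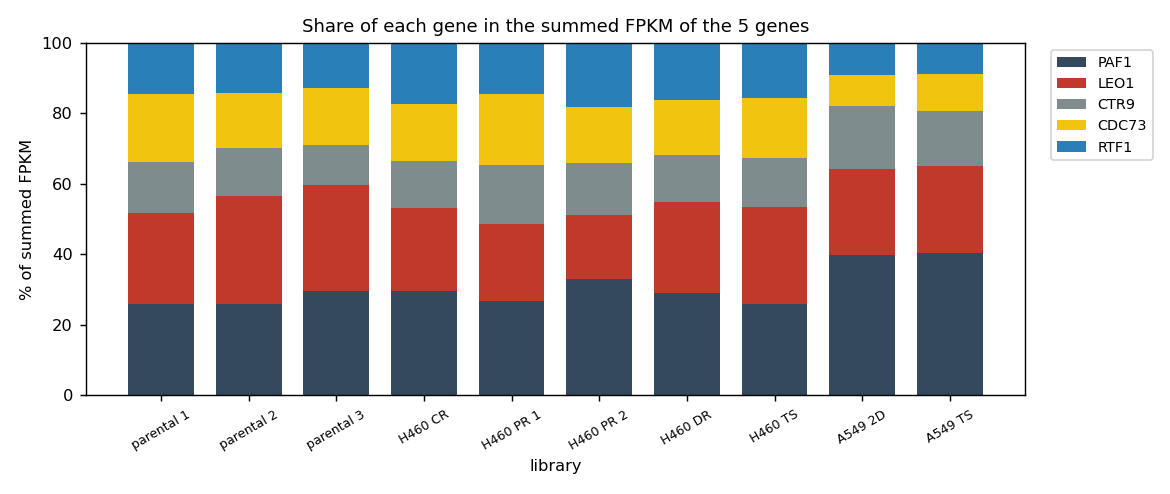
Share of each of the 5 genes in their summed FPKM, in percent, 1 stacked bar per library. PAF1 took 25.8% to 33.0% in H460 and 39.9% and 40.4% in A549.

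The names the submitters gave the libraries have a hyphen or not, and no source says whether this marks a batch. The paper names 2 sequencing instruments and does not say which libraries ran on which. LEO1 was lower in drug-resistant cells within both forms, by a log2(FPKM + 1) difference of -0.53 without the hyphen (1 drug-resistant against 2 parental libraries) and -0.96 with it (3 against 1). The differences within the forms were -0.25 and -0.30 for PAF1, -0.11 and -0.26 for RTF1, -0.03 and -0.49 for CDC73, and 0.13 and -0.47 for CTR9.

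With 1 library each, CR and DR allow no test and were set against the parental mean on the log2(FPKM + 1) scale. In CR the differences were -0.69 for LEO1, -0.48 for CDC73, -0.37 for CTR9, -0.31 for PAF1 and -0.11 for RTF1. In DR they were -0.46, -0.40, -0.28, -0.22 and -0.09 in the same order. None of the 5 passed 2-fold in either library, where 6.37% (CR) and 5.02% (DR) of genes did. In the PR libraries taken singly, LEO1 was at -0.63 in replicate 1 and -1.08 in replicate 2, where it was the only member past 2-fold, beside 5.42% and 8.01% of genes.

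In the 2 PR libraries LEO1 was at 0.458 of the parental level (log2 fold change -1.13, SE 0.27, adjusted p = 0.0135), and it was again 1 of 5 members called, beside 10.7% of 19430 genes called lower, 17.4% called higher and 28.1% called at all. The call was lost without PR replicate 2 (-0.88, adjusted p = 0.182) and without parental replicate 2 (-1.05, adjusted p = 0.0505). The other members had log2 fold changes of -0.53 (CDC73, adjusted p = 0.192), -0.50 (PAF1, 0.126), -0.41 (RTF1, 0.227) and -0.38 (CTR9, 0.334). This comparison shares its libraries with the one of all drugs and is no second measurement. The PR libraries differed between themselves: CTR9 and CDC73 were 10.1 and 11.9 in PR replicate 1, near the parental means, and 7.50 and 8.14 in replicate 2.

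Whether the microtubule drug paclitaxel and the DNA-damaging drugs differed was asked with PR against CR and DR. LEO1 had a log2 fold change of -0.47 (SE 0.24, 95% interval -1.01 to 0.07, adjusted p = 0.459), and no member passed. Of 19770 genes edgeR called 0, or 0.0%, while 2466 had an unadjusted p under 0.05. DESeq2 called 420 of the 19770 genes. With limma, which tested 12755 genes, 101 were called with a pseudocount of 1 and 15 with 0.1.

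The partner WDR61 fell as well. Its FPKM was 42.0, 43.5 and 36.0 in parental cells, 28.7 in CR, 22.2 and 22.6 in PR and 34.3 in DR, with no overlap. Of 12755 genes, 17.3% likewise had all drug-resistant values below all parental ones. The log2 fold change of WDR61 in edgeR was -0.65 over all drugs (SE 0.21, adjusted p = 0.0373) and -1.04 in PR (SE 0.23, adjusted p = 0.0105). Of all genes tested, 15.4% were called lower over all drugs and 10.7% in PR. The first call held in 9 of 14 alternatives and was lost with upper quartile scaling (adjusted p = 0.0831) and without parental replicate 1 (0.0752), parental replicate 2 (0.0962), PR replicate 1 (0.0857) or PR replicate 2 (0.1003). In PR alone it was lost without PR replicate 1 (0.0846) or 2 (0.124).

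The other machinery of elongation was described by lists of genes. Of 12 RNA polymerase II subunits, 6 fell in drug-resistant cells and 0 rose, with a median log2 fold change of -0.51 beside 0.06 for all genes tested, and 4 to 8 were called lower over the 14 alternatives. The subunits POLR2I (57.3 ± 3.02 to 31.5 ± 0.455 FPKM, log2 fold change -0.98, adjusted p = 0.00155), POLR2H (-0.82) and POLR2E (-0.75) fell most. Of 29 elongation factors, 6 fell and 0 rose, with a median of -0.14, and that share is near the 15.4% of all genes called lower. SSRP1 (82.8 ± 12.5 to 29.4 ± 5.41 FPKM, -1.64, adjusted p = 3.4e-04) and SUPT16H (-1.26, adjusted p = 0.00201) form the histone chaperone FACT, and TCEA1 (-1.04, adjusted p = 0.00184) restarts stalled polymerase. The median of this list turned to 0.04 with upper quartile scaling, and over the 14 alternatives 5 to 7 of its genes were called lower and 0 to 2 higher.

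Of 15 enzymes of H2B ubiquitination and the linked H3 methylation, 3 fell and 0 rose, a share also near the 15.4% of all genes, with a median of -0.18 that was 0.01 with upper quartile scaling, and over the 14 alternatives 1 to 4 were called lower, fewest without DR among the left-out libraries. The 3 called were the H3 methyltransferase DOT1L (-0.93, adjusted p = 0.0199), WDR5 (-0.87, adjusted p = 0.00654), a core subunit of H3 methyltransferase complexes, and WAC (-0.55, adjusted p = 0.023), an adaptor of the H2B ligase. In the SKI complex, the helicase SKIV2L rose (9.88 ± 1.18 to 18.2 ± 0.715 FPKM, 0.76, adjusted p = 0.00798), whereas WDR61 and TTC37 (-0.65, adjusted p = 0.0386) fell. The call of TTC37 was lost in 8 of 14 alternatives (adjusted p of 0.0534 to 0.1003 there): with upper quartile scaling, with the name form as a covariate, and without CR, DR, PR replicate 2 or any 1 of the 3 parental libraries. All 10 proliferation genes fell, with a median of -3.62, led by TOP2A (-3.99), BUB1 (-3.83) and PLK1 (-3.74). Their fall accompanied that of LEO1 and the lists above, and its part in them was not tested. With upper quartile scaling the median of all genes moved from 0.06 to 0.234, and the calls moved from 3382 higher and 2838 lower to 4193 and 2031.

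**Figure D4:**
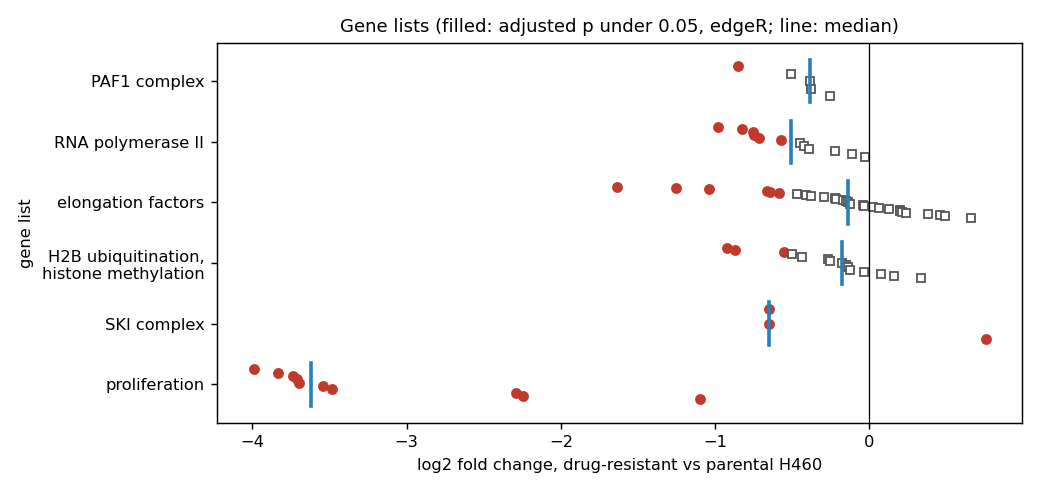
Log2 fold change of each gene in drug-resistant against parental H460 cells, 1 row per gene list, with filled points for an adjusted p under 0.05 and a line at the median. Polymerase subunits had a median of -0.51, elongation factors of -0.14 and proliferation genes of -3.62.

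In PR cells alone, 5 of 12 polymerase subunits, 5 of 29 elongation factors, 2 of 15 histone enzymes and 1 of 3 SKI genes fell, and 0 rose, beside 10.7% of all genes called lower. Over the 14 alternatives 0 to 1 SKI genes were called higher, and 0 of the other lists. The counts called lower were 0 to 9, 0 to 6, 0 to 2 and 0 to 2. Without PR replicate 2 all 4 were 0, without PR replicate 1 all but the elongation factors (3) were 0, and without parental replicate 2 they were 3, 3, 0 and 1. The histone enzymes were also at 0 without parental replicate 1 and with RLE scaling, upper quartile scaling, limma or the name form as a covariate. The 3 polymerase subunits with the largest falls were POLR2I (-1.11), POLR2E (-1.0) and POLR2G (-0.97), and the histone enzymes were WDR5 (-0.84) and ASH2L (-0.72).

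Spheroid culture moved the 5 genes little. In H460 TS, PAF1 was 17.8, LEO1 18.9, CTR9 9.49, CDC73 11.7 and RTF1 10.7 FPKM. Of these, PAF1 lay just below the parental range and the others within it. In A549, PAF1 was 37.0 in 2D and 33.3 in TS, LEO1 22.7 and 20.3, CTR9 16.5 and 12.7, CDC73 8.15 and 8.81, and RTF1 8.59 and 7.27. Over both lines, 95% intervals of the log2 fold change were -0.58 to 0.35 for PAF1, -0.61 to 0.37 for LEO1, -0.71 to 0.43 for CTR9, -0.52 to 0.58 for CDC73 and -0.54 to 0.51 for RTF1. None passed (adjusted p = 0.9999 for each), beside 0.191% of 18372 genes (0.147% higher and 0.0435% lower), and none of the 5 passed 2-fold in either line, beside 1.94% (H460) and 5.02% (A549) of genes. The test of whether the lines differed in this effect called 0.421% of genes (0.331% higher and 0.0903% lower) and none of the 5 (adjusted p = 0.9999). The 95% intervals of that test were wide, at -1.58 to 0.97 for CTR9. On simulated data it recovered 3.5% of genes set to a log2 fold change of 2 in size, so it cannot settle whether the lines differed. No gene of the elongation, polymerase, histone enzyme or SKI lists passed in either test.

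Between the lines, PAF1 differed. Both A549 libraries (37.0 and 33.3 FPKM) lay above all 8 H460 libraries (15.7 to 20.5). In the fit of the 2 A549 libraries with the 3 parental and 1 TS library of H460, PAF1 was 1.87-fold higher in A549 (log2 fold change 0.91, SE 0.19, 95% interval 0.45 to 1.36, adjusted p = 0.0166). It was 1 of 5 members called, beside 23.8% of 18372 genes called, 14.3% higher and 9.43% lower. The call held in 9 of 12 alternatives and was lost without H460 TS (adjusted p = 0.0881), A549 2D (0.172) or A549 TS (0.0780).

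CTR9 was also above all H460 libraries in A549 (16.5 and 12.7 against 7.17 to 11.4). Its log2 fold change was 0.63 (SE 0.23, adjusted p = 0.0998), and it passed in DESeq2 alone (0.64, adjusted p = 0.0421). Of 13439 genes, 16.9% had both A549 values above all 8 H460 values and 15.9% had both below. CDC73 (-0.52, adjusted p = 0.160), RTF1 (-0.37, adjusted p = 0.277) and LEO1 (0.11, adjusted p = 0.731) did not pass. Between the 2D cultures alone, 9.57% of genes were past 2-fold on the log2(FPKM + 1) scale and none of the 5 was. Relative to the 5 genes together, CDC73 made up 15.6% to 19.99% in H460 and 8.77% and 10.7% in A549, and RTF1 12.9% to 18.1% and 9.24% and 8.82%.

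Of the 29 elongation factors, 6 were higher and 1 lower in A549, near the 14.3% and 9.43% of all genes. The 6 became 0 without A549 2D, 1 without A549 TS or H460 TS and 4 without any 1 of the parental libraries. HEXIM2 (1.47), an inhibitor of the elongation kinase P-TEFb, SUPT5H (1.31), a subunit of the pausing factor DSIF, and AFF1 (1.11), a scaffold of the super elongation complex, were higher, and ELL2 (-2.53), another elongation factor of that complex, was lower. POLR2L (0.75) and POLR2G (0.69) were higher among the polymerase subunits, and TTC37 of the SKI complex was lower (-1.0). The 2 polymerase calls became 0 without any 1 library other than parental replicate 3, and 1 without that one, and 0 with limma or without the filter on low counts. That of TTC37 was lost without any 1 library other than parental replicate 3.

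SUPT5H and PAF1 are neighbours, and the genes around each member were therefore examined, a choice made after the values were seen. By RefSeq positions on GRCh38.p14, PAF1 lies at chr19:39385629-39391106, CTR9 at chr11:10751246-10779746, LEO1 at chr15:51938025-51971778, CDC73 at chr1:193122031-193254815 and RTF1 at chr15:41417095-41483563. Within 500 kb of PAF1, 22 other genes were tested, and all 22 had fitted log2 fold changes above 0 in A549 against H460, with a median of 1.22. Over all genes tested, 14.3% were called higher and 9.43% lower, with a median of 0.005. Of the 22, 12 were called higher and 0 lower, among them MED29 (1.55, adjusted p = 0.00482), PAK4 (1.93) and EID2 (1.14, adjusted p = 0.0128). The 12 include SUPT5H, whose value prompted this look.

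Around CTR9, 11 of 12 genes were above 0, with 5 called higher, 0 lower and a median of 0.98. Around CDC73, 0 of 6 were above 0, 2 were called lower (UCHL5, -1.67, and RO60, -1.08) and the median was -1.28. Around LEO1, 3 of 12 were called higher and 1 lower, and around RTF1 2 of 19 and 0. Around LEO1 8 of 12 were above 0 and around RTF1 7 of 19, with medians of 0.42 and -0.09. The fitted values of the 5 members had the signs of these medians, but of the members PAF1 alone was called. The signs of CTR9, CDC73, LEO1 (0.11, adjusted p = 0.731 in edgeR) and RTF1 (-0.37, adjusted p = 0.277) are therefore not settled. Whether a cause shared by the genes of a region lies behind these values was not tested. In drug-resistant cells the genes around LEO1 were called on both sides, with 2 higher and 2 lower of 12.

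**Figure D5:**
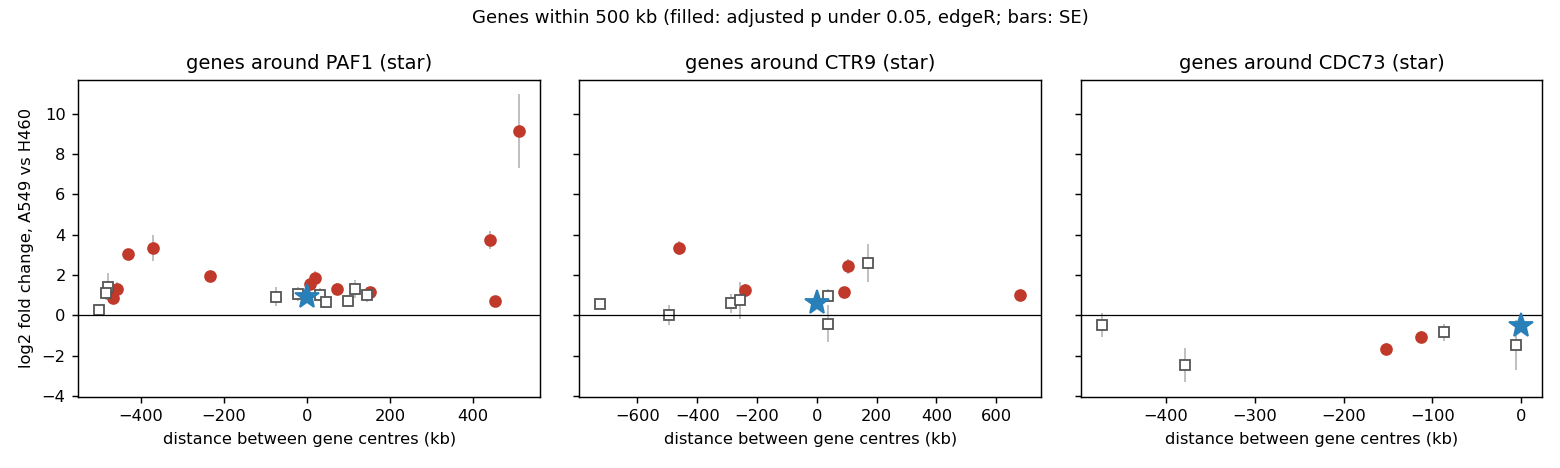
Log2 fold change in A549 against H460 of the genes within 500 kb of PAF1, CTR9 and CDC73, against the distance between gene centres in kb. LEO1 and RTF1 are not drawn. Bars give the SE, filled points an adjusted p under 0.05 (edgeR) and a star the member. All 22 genes around PAF1 and 0 of 6 around CDC73 were above 0.

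PAF1 overlaps SAMD4B (6.03 to 28.0 FPKM), which was itself at 1.08 in A549 against H460 (adjusted p = 0.0688), and no source used here says whether strand was used in counting, so reads of their shared part cannot be told apart. The genes that overlap LEO1 and CDC73 were at most 0.865 and 0.157 FPKM.

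Across libraries the 5 genes did not follow a single course. Over the 8 H460 libraries, Pearson's r of log2(FPKM + 1) between pairs was 0.55 to 0.94, highest for CTR9 and CDC73. Over all 10 libraries it was -0.40 to 0.86, and that of CTR9 and CDC73 was 0.14. These points share libraries and depth, and the 2 cell lines lie apart for PAF1 and CTR9.

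The genes most like each member over the 10 libraries were sought among 9777 genes with an FPKM of at least 1 throughout. For PAF1 they were HNRNPUL2 (r = 0.992), its neighbour EID2 (0.987) and PRPF31 (0.983). For CTR9 they were ZNF146 (0.985), SEC23IP (0.968) and VRK2 (0.966), and for LEO1 LDHB (0.969), SRBD1 (0.961) and PSIP1 (0.955). For CDC73 they were RLIM (0.979), SACM1L (0.978) and POLK (0.976), and for RTF1 TBCE (0.981), CDK7 (0.981) and MRPL36 (0.978). These are the highest of 9777 genes over 10 libraries, and no test was made. PAF1 and CTR9 were higher in both A549 libraries than in every H460 library, so genes with a like difference between the lines can reach a high r. Likeness within H460 alone and shared regulation were not tested.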

How the data were processed

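Messenger RNA was sequenced in 10 poly(A)-selected libraries. The authors deposited 1 table with read counts per gene, and with FPKM and TPM values that they made from the reads by scaling for transcript length and library size. The submitters' processing notes name GRCh38, bcl2fastq 1.8.4, Trimmomatic, HISAT2 2.1.0 and StringTie 2.1.3b. Counting rules and strand use are not given in the sources used here. Counts were tested with edgeR 4.0.16 (R 4.3.3; TMM scaling, filterByExpr, robust quasi-likelihood fit, two-sided) over all genes passing the filter, and p-values were adjusted by Benjamini-Hochberg (called under 0.05). Drugs were pooled as drug-resistant cells because CR and DR had 1 library each. The line and culture terms came from 1 fit of 6 libraries. Single libraries were compared as log2(FPKM + 1) with a 2-fold limit. Alternatives used DESeq2 1.42.0, limma 3.58.1, other scalings and filters, and fewer libraries. The steps were tested on simulated data. The named genes were all 5 members, up to 3 called genes per list and direction with the largest fold change, and the 3 genes most like each member. The members and lists were chosen with earlier results of these data known.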

Additional observations from a re-analysis of the deposited data

How the results depend on the processing

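CR, DR and both TS conditions had 1 library each, and a left-out library often left 1 in a group, which was then assumed to vary like the others. Among the values of the 5 genes and WDR61 under the alternatives, 375 kept their direction and their side of the threshold, 12 lost and 4 gained a call, and 17 changed sign, none of them called. Those were, for PR against CR and DR, PAF1 at 0.02 with limma under both pseudocounts, CTR9 at -0.03 and CDC73 at -0.17 with the form of the library name as a covariate, CDC73 at -0.0008 without the filter and -0.04 without CR, and CTR9 at -0.21 and CDC73 at -0.32 without PR replicate 1, with ranges over left-out libraries of -0.21 to 0.27 and -0.32 to 0.28. For TS against 2D they were CDC73 at -0.06 to -0.02, RTF1 at 0.001, 0.02 and 0.10 and WDR61 at -0.02, each with a library left out, and the ranges were -0.06 to 0.15, -0.20 to 0.10 and -0.02 to 0.21. The cause was not tested.

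The number of genes called in PR against parental cells was 5466, and it was 3026 and 2773 with limma on log2(FPKM + 1) and log2(FPKM + 0.1), 3626 with the name form and 1008 to 6591 with a library left out. With the replicate block on 2 pairs it was 6648, while those 4 libraries gave 6591 with no block, and LEO1 kept its call (-1.19, adjusted p = 0.016 in edgeR). Differences between replicates 1 and 2 in PR and in parental cells were weakly correlated (r = 0.156 over 12593 genes). In both groups replicate 1 had a name without a hyphen and replicate 2 a name with one. Replicate number and name form therefore cannot be told apart in these 4 libraries. For PR against CR and DR the count was 0, and it was 420 with DESeq2, 316 without the filter, 101 and 15 with limma under pseudocounts of 1 and 0.1, and 0 to 98 with a library left out. For TS against 2D it was 35, and it was 537 with DESeq2, 70 without the filter, 19 with limma under a pseudocount of 0.1 and 5 to 323 with a library left out. For the lines it was 4367, and 2364 to 3830 with a library left out. For the difference of the TS effect it was 84, and 539 with DESeq2. Drug-resistant against parental gave 6220, and 4216 to 6557 with a library left out.

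Genes past 2-fold numbered 3891 (CR), 3785 (DR), 1776 (H460 TS) and 3430 (A549 TS) with a pseudocount of 0.1, against 1632, 1448, 483 and 1226. They numbered 2512 for CR against parental replicate 1 alone and 875 for H460 TS against parental replicate 3 alone. With TPM in place of FPKM, an alternative chosen after seeing the data, they numbered 769 for H460 TS.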
